A study of Mus musculus with 45 samples.

Results

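The genes described here are 10 Krüppel-like transcription factors, Klf2, Klf4, Klf5, Klf6, Klf7, Klf9, Klf10, Klf13, Klf15 and Klf16, which were chosen by name from the 54532 gene rows of the count table through their Ensembl identifiers. All 10 had reads and entered every test. RNA was sequenced from primary hippocampal neurons of newborn C57BL/6N mice, in 45 libraries that cover 9 conditions with 1 library from each of 5 culture preparations, numbered 1, 3, 6, 7 and 8. The study asked how action potential (AP) firing changes gene expression, and how silencing of firing and stimulation of extrasynaptic NMDA receptors alter that response.

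All cultures had received the mitosis inhibitor AraC on day in vitro (DIV) 3. The sample labels give treatment on DIV 10 or 11, and the paper's RNA-seq methods give DIV 11. The control was untreated. Bicuculline (Bic, 50 µM), which blocks GABA type A receptors and so induces AP firing, was given for 0.5, 1 or 2 h. In the short protocol (SP), tetrodotoxin (TTX, 1 µM), which stops AP firing, or TTX together with NMDA (30 µM) was added after 0.5 h of Bic for another 0.5 h. In the long protocol (LP), Bic acted alone for 1 h before TTX, TTX/NMDA or TBOA (50 µM), an inhibitor of glutamate uptake that causes glutamate spillover from synapses, was added for 1 h. Bic stayed in the medium in both protocols. Below, the difference between TTX and Bic left uninterrupted for an equal total time is called passive, the change that NMDA added to TTX is called active, and the sum of both, TTX/NMDA against uninterrupted Bic, is called total. NMDA in the bath reaches synaptic and extrasynaptic receptors of all cells of the culture at once, and no sequenced arm held NMDA without TTX. For genes measured by RT-qPCR, the paper reports that NMDA alone and TTX/NMDA did not differ in effect.

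Krüppel-like factors bind GC-rich DNA elements, among them the CACCC box, through zinc fingers at their C-terminal end, while their N-terminal parts recruit coactivators or corepressors. Klf2, Klf4, Klf5, Klf6 and Klf7 are mostly counted as activators, and Klf9, Klf10, Klf13 and Klf16 carry a domain that recruits the Sin3 corepressor complex. In neurons the family is best known for control of axon growth, in which Klf4 and Klf9 act as brakes and Klf6 and Klf7 as promoters, and several members are immediate early genes of growth factor or hormone signaling.

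All 10 genes are protein-coding and lie on different chromosomes. On GRCm38, Klf4 (ENSMUSG00000003032) spans chr4:55527143-55532466 on the minus strand and Klf10 (ENSMUSG00000037465) chr15:38291463-38300706 on the minus strand. Klf7, Klf9 and Klf13 overlap other annotated genes, Klf7 and Klf9 a microRNA gene on the same strand, and Klf7 and Klf13 noncoding genes on the opposite strand, from which the stranded counting separates them.

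RefSeq promoter windows, which reach from 250 bases before to 50 bases after the transcription start (build GRCm38.p6), were matched for 7 of the 10 genes, all but Klf5, Klf10 and Klf16. The upstream bases of Klf4 and Klf2 are shown because these genes had the lowest control levels and then took different courses, and those of Klf9 and Klf6 because Klf9 fell and Klf6 rose in the LP active effect. Capitals mark the half-site of the cAMP response element (CRE), TGACG or its complement CGTCA, the MEF2 box and the E-box CACGTG. None of these marked matches overlaps another. Klf4 (chr4:55532476-55532725, minus strand) holds a CRE half-site and an E-box, and Klf2 (chr8:72318812-72319061, plus strand) a CRE half-site and a MEF2 box. The last 100 bases before the start of Klf9 (chr19:23141126-23141225, plus strand) hold a CRE half-site, and those of Klf6 (chr13:5861389-5861488, plus strand) an E-box.
Klf4: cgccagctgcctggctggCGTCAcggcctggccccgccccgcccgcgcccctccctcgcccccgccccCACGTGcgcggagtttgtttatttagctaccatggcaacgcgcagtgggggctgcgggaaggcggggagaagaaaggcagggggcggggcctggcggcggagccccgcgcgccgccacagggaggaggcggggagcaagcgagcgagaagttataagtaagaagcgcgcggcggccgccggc
Klf2: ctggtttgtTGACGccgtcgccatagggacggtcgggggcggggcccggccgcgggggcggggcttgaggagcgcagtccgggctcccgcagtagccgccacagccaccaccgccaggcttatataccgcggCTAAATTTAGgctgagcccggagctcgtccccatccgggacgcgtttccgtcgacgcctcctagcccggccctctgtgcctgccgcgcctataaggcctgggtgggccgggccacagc
Klf9: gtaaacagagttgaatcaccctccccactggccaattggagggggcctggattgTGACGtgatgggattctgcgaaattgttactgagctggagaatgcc
Klf6: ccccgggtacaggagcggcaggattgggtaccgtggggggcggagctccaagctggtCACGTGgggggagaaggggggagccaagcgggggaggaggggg

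Searched on both strands over the whole windows, the CRE half-site was present in 5 of the 7 windows (Klf2, Klf4, Klf9, Klf13 and Klf15), against 20.8% of all 32851 RefSeq windows of that length. The full CRE TGACGTCA, present in 1.79% of all windows, was in none of the 7, and neither was the CArG box of serum response factor, present in 1.63%. The MEF2 box was found in Klf2 alone (3.19% of all windows) and the E-box in Klf4, Klf6 and Klf15 (7.15%). The GC box GGGCGG, an element that Sp and Klf proteins bind, was in 6 of the 7 windows, all but that of Klf9 (35.7%), and the CACCC box in 5, those of Klf2, Klf7, Klf9, Klf13 and Klf15 (57.5%). The CRE half-site is contained in the full CRE, and such matches describe letters in a window and no binding.

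Reads on genes ranged from 11316580 to 81129276 per library (median 26239614), and levels are given as CPM, read counts scaled to a common library size with TMM factors. Neuronal markers had levels of 161 to 1933 CPM in every library, and the astrocyte marker Gfap had 154 to 665 CPM. Of the endothelial markers, Cldn5, Tek and Tie1 did not exceed 0.0894, 0.293 and 0.167 CPM. Pecam1, Cdh5 and Flt1 had 0.445 to 1.07, 0.312 to 2.94 and 0.26 to 2.25 CPM. Of the microglial markers, P2ry12, Cx3cr1, Aif1 and Tmem119 did not exceed 0.357, 0.988, 0.733 and 1.18 CPM. Csf1r and C1qa had 1.69 to 4.17 and 0.946 to 3.38 CPM. The oligodendrocyte marker Sox10 did not exceed 0.348 CPM, and Mbp had 18.7 to 36.6 CPM. Fibroblast and mural markers had 2.05 to 69 CPM. Markers of neurons and of astrocytes were thus both present, and each other type had markers with reads in every library. In bulk RNA, fewer cells of a type and less RNA per cell cannot be told apart. As the 5 preparations are all represented in each condition, a fit with the preparation as a block was added to each test (hereafter the blocked fit), and its result is given where it changed a call. Changes were called with edgeR's quasi-likelihood test at a Benjamini-Hochberg adjusted p-value under 0.05 over all genes tested, and this p-value is given as the edgeR adjusted p.

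In untreated neurons, Klf13 had the highest level per length of transcribed sequence, 30.2 ± 3.36 CPM per kb (SD, n = 5), followed by Klf7 (20.9 ± 1.04), Klf16 (19.4 ± 1.25) and Klf6 (18.2 ± 3.05 CPM per kb). The libraries of Klf7 and Klf16 overlapped on this scale, as did those of Klf16 and Klf6. Klf9 (13.2 ± 0.627), Klf10 (6.01 ± 0.594), Klf15 (3.99 ± 0.0724) and Klf5 (2.53 ± 0.257 CPM per kb) followed without overlap between neighbours. Klf2 (0.783 ± 0.287) and Klf4 (0.548 ± 0.0721 CPM per kb) were lowest and overlapped each other. After 2 h Bic, Klf4 stood at 22.9 ± 7.86 CPM per kb and overlapped Klf9 above and Klf7 below it in the order. After LP TTX, Klf10 stood second at 29.8 ± 0.974 CPM per kb and overlapped Klf13 above it and Klf16 below it. The widest span of condition means on the log2 CPM scale was that of Klf4, 5.62, followed by Klf10 with 2.91, Klf5 with 1.46, Klf9 with 1.21 and Klf2 with 1.13, and the other 5 genes spanned less than 1.

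**Figure D1:**
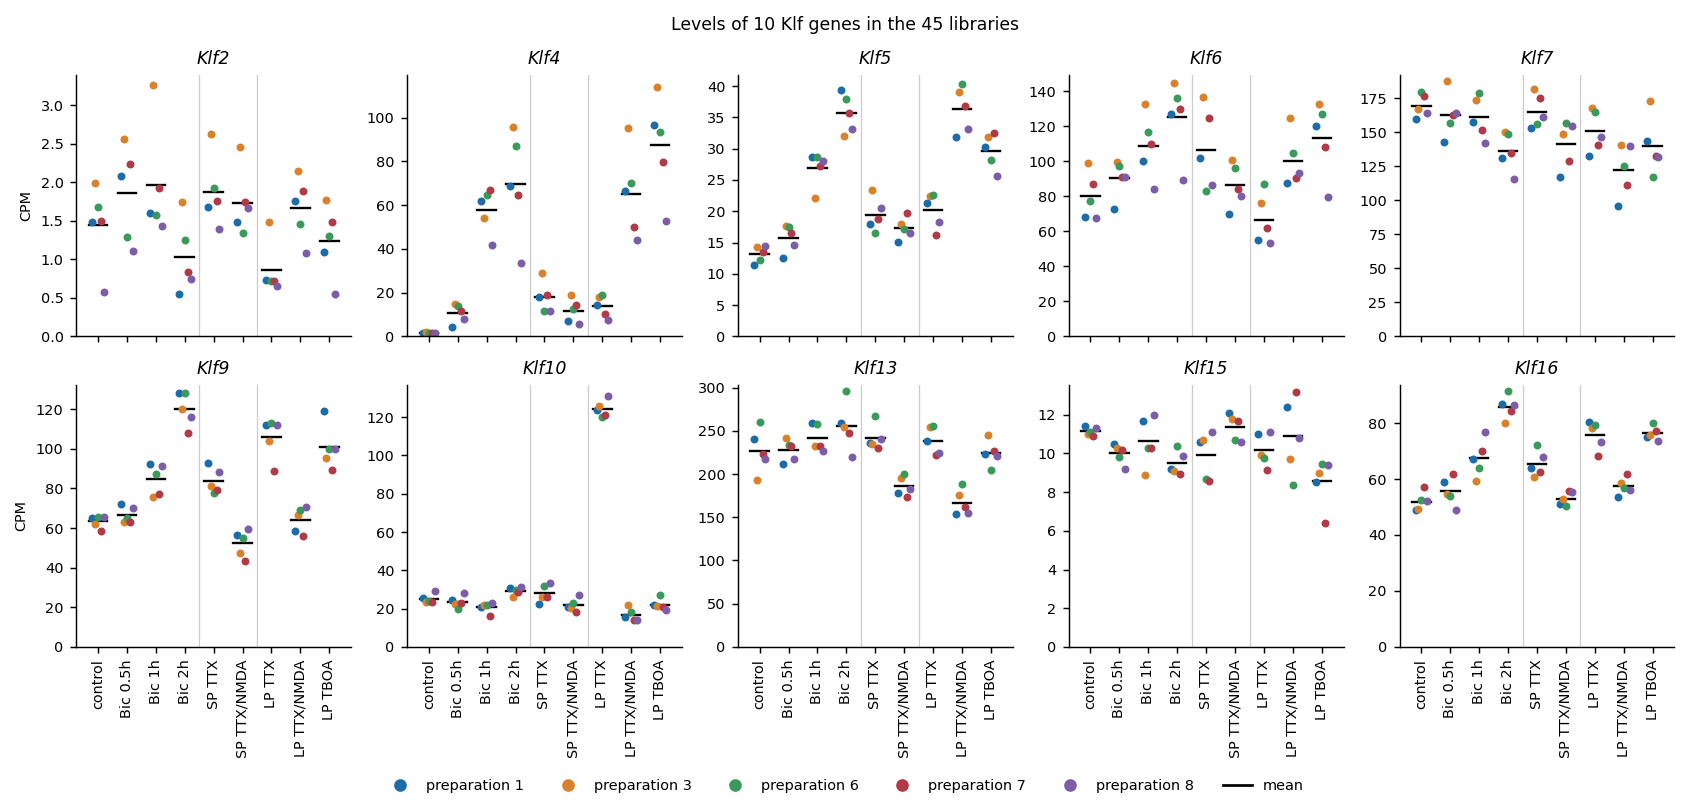
Level in CPM (linear axes from 0, a scale of its own for each gene) of 10 Klf genes in 45 libraries over 9 conditions. Points are libraries, coloured by culture preparation, bars are means of 5, and grey lines separate the control and Bic series, the SP and the LP. Klf4 rises from 1.67 CPM in the control to 69.8 CPM after 2 h Bic and drops with TTX in both protocols, and Klf10 has a level of 125 CPM in LP TTX and means of 16.7 to 29.4 CPM elsewhere.

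Klf4, a reprogramming factor and immediate early gene, was induced by AP firing from the first time point on. Its level in the control libraries of preparations 1, 3, 6, 7 and 8 was 1.48, 1.99, 1.78, 1.48 and 1.61 CPM, and after 0.5 h Bic it was 4.48, 14.7, 13.8, 11.5 and 8.05 CPM in the same order. Every library at 0.5 h lay above every control library, and preparation 1 was the lowest of them. The log2 fold change was 2.67 ± 0.19 (SE, edgeR adjusted p = 5.9e-16). Klf4 was the single member called after 0.5 h, where 0.289% of all 30133 genes tested were called.

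After 1 h Bic, Klf4 had levels of 61.7, 54.3, 64.6, 66.7 and 41.8 CPM, and after 2 h 68.6, 95.6, 86.9, 64.5 and 33.6 CPM. All were far above the control, and preparation 8 was lowest at both times. The log2 fold change over control was 5.11 ± 0.13 after 1 h (edgeR adjusted p = 6.5e-29) and 5.37 ± 0.20 after 2 h (edgeR adjusted p = 1.4e-21), a 41.4-fold difference. It rose by 2.43 ± 0.13 on the log2 scale from 0.5 to 1 h (edgeR adjusted p = 7.6e-25).

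After 1 h Bic, 5 of the 10 members were called, all of them higher (background 1.16% of 30765 genes, 0.965% higher). After 2 h, 6 were called, 5 higher and 1 lower (background 9.02% of 30929 genes, 4.24% higher and 4.78% lower), and the blocked fit called 9, with 7 higher and 2 lower, where it called 29.3% of 15269 genes. The members' median log2 fold change was 0.39 after 1 h and 0.43 after 2 h, against −0.01 over all genes tested at both times. From 0.5 to 1 h, 3 members were called, Klf4, Klf5 and Klf9, all higher (background 0.677%), and from 1 to 2 h 6 were called, 4 higher and 2 lower (background 5.33%, 2.53% higher and 2.8% lower).

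Klf5, a factor known from proliferating epithelia, had 11.4, 14.3, 12.2, 13.5 and 14.5 CPM in the control and 39.4, 32.1, 37.9, 35.7 and 33.1 CPM after 2 h Bic. The 2 groups were well separated. The log2 fold change was 1.02 ± 0.10 after 1 h (edgeR adjusted p = 2.5e-10) and 1.42 ± 0.09 after 2 h (edgeR adjusted p = 1.3e-14), and Klf5 still rose between these times, by 0.40 ± 0.08 (edgeR adjusted p = 0.00082).

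Klf6, a promoter of axon growth, rose more mildly. Its levels were 68.3, 99.2, 77.5, 87.1 and 67.6 CPM in the control and 127, 145, 136, 130 and 89.1 CPM after 2 h Bic. Preparation 3 was the highest and preparation 8 the lowest in both, so that the ranges overlapped although Klf6 was higher in 5 of 5 preparations. The log2 fold change was 0.44 ± 0.10 after 1 h (edgeR adjusted p = 0.011) and 0.64 ± 0.10 after 2 h (edgeR adjusted p = 2.6e-05). The call at 1 h was lost over genes that pass edgeR's filterByExpr and in a fit of all 45 libraries, with an edgeR adjusted p of 0.11 in both. From 1 to 2 h the log2 fold change of Klf6 was 0.20 ± 0.10 (edgeR adjusted p = 0.39), and the blocked fit called it (0.20, adjusted p = 0.0015), as did the fit without preparation 8 (0.22, adjusted p = 0.021).

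Klf2, best known as the flow-responsive factor of endothelial cells, was scarce, with 10 to 103 reads per library in the control and Bic series. It stood at 1.6, 3.26, 1.58, 1.92 and 1.43 CPM after 1 h Bic and at 0.556, 1.74, 1.25, 0.838 and 0.739 CPM after 2 h. Preparation 3 was highest at both times and the ranges overlapped, yet Klf2 was lower at 2 h in 5 of 5 preparations. It fell by 0.93 ± 0.25 on the log2 scale from 1 to 2 h (edgeR adjusted p = 0.015), a call that was lost over genes that pass filterByExpr (adjusted p = 0.058). Against the control, its log2 fold change was 0.43 ± 0.24 after 1 h (edgeR adjusted p = 0.66) and −0.50 ± 0.27 after 2 h (edgeR adjusted p = 0.34).

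Klf7, the other promoter of axon growth, was the single member called lower after 2 h Bic. It had 160, 167, 180, 177 and 164 CPM in the control and 131, 150, 149, 135 and 116 CPM after 2 h Bic. No library after 2 h reached the lowest control. Klf7 fell by 0.33 ± 0.08 on the log2 scale after 2 h (edgeR adjusted p = 0.0032) and by 0.25 ± 0.07 from 1 to 2 h (edgeR adjusted p = 0.032). The call from 1 to 2 h was lost without preparation 1 (adjusted p = 0.11) or 6 (0.054), over genes that pass filterByExpr (0.05) and in the fit of all 45 libraries (0.16).

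Among the Sin3-recruiting members, Klf9 and Klf16 rose step by step. Klf9, a hormone-responsive brake on axon growth, had 64.9, 61.8, 65.8, 58.7 and 65.5 CPM in the control, 92.5, 75.9, 87.3, 77.2 and 91.4 CPM after 1 h Bic and 128, 120, 128, 108 and 116 CPM after 2 h. These 3 groups did not overlap. The log2 fold change was 0.42 ± 0.08 after 1 h (edgeR adjusted p = 0.0011) and 0.91 ± 0.08 after 2 h (edgeR adjusted p = 1.3e-11). Its rise over control was 89.6% ± 8.32 after 2 h (SD, n = 5 preparations).

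Klf16, a repressor that was described on dopamine receptor promoters, had 48.8 to 57.1 CPM in the control and 86.9, 79.9, 91.5, 84.4 and 86.3 CPM after 2 h Bic. The groups did not overlap. Its log2 fold change was 0.37 ± 0.08 after 1 h (edgeR adjusted p = 0.0075) and 0.71 ± 0.08 after 2 h (edgeR adjusted p = 6.2e-09). The call at 1 h was lost without preparation 1 (adjusted p = 0.06) or 8 (0.055). From 1 to 2 h, Klf9 rose by 0.49 ± 0.07 and Klf16 by 0.34 ± 0.07 on the log2 scale (edgeR adjusted p = 3.4e-06 and 0.00072).

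Klf10, first described as an early gene of TGF-beta signaling, moved little under uninterrupted Bic. Its levels were 25.5, 23.6, 24, 23.3 and 29.3 CPM in the control, 20.8, 21.9, 22, 16.3 and 22.8 CPM after 1 h and 30.7, 26.2, 29.9, 28.5 and 31.4 CPM after 2 h. It was lower than the control in 5 of 5 preparations at 1 h and higher in 5 of 5 at 2 h. The log2 fold changes over control, −0.28 ± 0.10 and 0.22 ± 0.09, were not called (edgeR adjusted p = 0.29 and 0.13), but both were called in the blocked fit (adjusted p = 0.041 and 0.013). From 1 to 2 h Klf10 rose by 0.49 ± 0.09 (edgeR adjusted p = 0.00012).

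Klf13, known from blood cells, and Klf15, a glucocorticoid-induced regulator of metabolism, were not called at any time of Bic. Klf13 ranged from 193 to 260 CPM in the control and from 220 to 296 CPM after 2 h, and Klf15 from 10.9 to 11.4 CPM and from 8.93 to 10.4 CPM. The Klf15 libraries did not overlap, and Klf15 was lower in 5 of 5 preparations at 2 h. In the blocked fit Klf13 was called higher (log2 fold change 0.17, adjusted p = 0.049) and Klf15 lower (−0.23, adjusted p = 0.029) after 2 h.

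**Figure D2:**
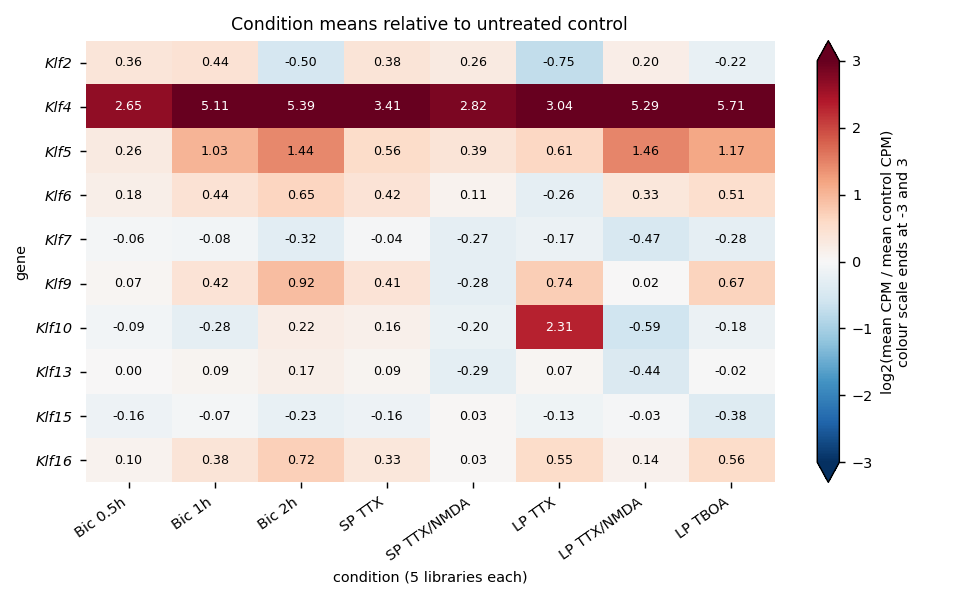
Log2 ratio of the mean CPM of each condition (columns, 5 libraries each) to the mean CPM of the untreated control for 10 Klf genes (rows), with the value written in each cell and a colour scale that ends at −3 and 3. Klf4 is above the control in every column, from 2.65 to 5.71, and Klf10 stands out in LP TTX alone, at 2.31.

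In the SP, TTX for 0.5 h lowered Klf4. Its level was 17.8, 29.1, 11.5, 19 and 11.7 CPM with TTX, below every 1 h Bic library of Klf4. The SP passive effect on Klf4 was −1.74 ± 0.14 on the log2 scale (edgeR adjusted p = 5.8e-11). Of the rise that 1 h of uninterrupted Bic produced over control, 29.3% ± 13.5 was present after SP TTX (SD, n = 5 preparations), from 15.5% to 51.9%. In the SP passive effect 3 members were called, 1 higher and 2 lower, where 0.268% of all 31765 genes tested were called (0.0157% higher and 0.252% lower).

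The other calls in the SP passive effect were smaller and less firm. Klf5 had 18, 23.4, 16.6, 18.8 and 20.5 CPM in SP TTX, against 28.6, 22.2, 28.7, 27.2 and 28.1 CPM after 1 h Bic, and was lower in 4 of 5 preparations, all but preparation 3. Its log2 fold change of −0.48 ± 0.09 (edgeR adjusted p = 0.0032) was not called in the blocked fit (adjusted p = 0.055), over genes that pass filterByExpr (0.089) or without preparation 1 (0.05). Klf10 had 22.6, 26, 31.9, 26.2 and 33.4 CPM in SP TTX and was higher than after 1 h Bic in 5 of 5 preparations, with overlapping ranges. Its log2 fold change of 0.44 ± 0.10 (edgeR adjusted p = 0.026) was called in the blocked fit (adjusted p = 0.026) but not over genes that pass filterByExpr (0.29), in the fit of all 45 libraries (0.055), by DESeq2 (0.062) or without preparation 7 (0.051).

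NMDA on top of TTX for 0.5 h lowered 4 members, Klf9, Klf10, Klf13 and Klf16 (background 4.28% of 32229 genes, 0.956% higher and 3.32% lower). Without preparation 6, and likewise without preparation 8, 7 members were called lower, with Klf4, Klf6 and Klf7 in addition. These fits called 1261 of 31258 genes (993 lower) and 1828 of 31052 genes (1249 lower). For Klf6 the log2 fold change in these fits was −0.43 and −0.35 (edgeR adjusted p = 0.0015 and 0.00045), and for Klf7 −0.29 and −0.28 (0.016 and 0.0099). The members' median log2 fold change in the SP active effect was −0.31 with all preparations, against 0.04 over all genes tested. Klf9 had 56.5, 47.4, 54.9, 43.2 and 59.5 CPM with SP TTX/NMDA and 93, 81.2, 77.8, 79.1 and 88.4 CPM with SP TTX. These groups were far apart, and in every preparation the TTX/NMDA level also lay below the control of that preparation. The SP active effect on Klf9 was −0.69 ± 0.08 (edgeR adjusted p = 2.6e-07). It was −0.39 ± 0.07 on Klf13 (edgeR adjusted p = 0.0002), −0.31 ± 0.07 on Klf16 (0.0038) and −0.37 ± 0.10 on Klf10 (0.024), each lower in 5 of 5 preparations. The call on Klf10 was lost over genes that pass filterByExpr (adjusted p = 0.079).

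Klf4 had 7.24, 18.8, 12.7, 14.2 and 5.89 CPM with SP TTX/NMDA, lower than with SP TTX in 4 of 5 preparations and higher in preparation 6. The SP active effect on Klf4 was −0.59 ± 0.21 (edgeR adjusted p = 0.12), and it was called in the blocked fit (−0.61, adjusted p = 0.029) and without preparation 3 (0.017), 6 (0.0072), 7 (0.03) or 8 (1.3e-05). Against 1 h Bic, TTX/NMDA left Klf4 lower by 79.7% ± 8.9 on average, with a drop in 5 of 5 preparations (SP total effect −2.31 ± 0.17, edgeR adjusted p = 6.7e-13).

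Of 6 neuronal markers, 3 were called in the SP active effect, Gad1 higher (0.39) and Map2 (−0.34) and Slc17a7 (−0.40) lower on the log2 scale, and the summed neuronal markers had 5265 to 5962 CPM in SP TTX and 5218 to 5717 CPM in SP TTX/NMDA. The summed astrocyte markers had 433 to 981 and 433 to 874 CPM, and the fibroblast and mural markers 67.2 to 142 and 80.6 to 186 CPM. In the SP total effect the blocked fit called 4 of 5 astrocyte and 5 of 5 fibroblast and mural markers as higher, where it called 11.7% of 15435 genes higher. The part of these shifts in the falls of the members in the SP was not tested.

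In the SP total effect, 6 members were called, all lower (background 4.3%, of which 3.41% lower). Beside Klf4 these were Klf5 (−0.64 ± 0.09, edgeR adjusted p = 3.7e-06), Klf9 (−0.70 ± 0.08, 9.5e-08), Klf13 (−0.38 ± 0.07, 0.00013), Klf16 (−0.35 ± 0.07, 0.002) and Klf6 (−0.34 ± 0.09, 0.02). The call on Klf6 was lost without preparation 1 (adjusted p = 0.082), over genes that pass filterByExpr (0.078) and in the fit of all 45 libraries (0.2). The blocked fit also called Klf7 (−0.20, adjusted p = 0.023). Klf10, higher with TTX and lower with NMDA, had a total effect of 0.07 ± 0.10 (edgeR adjusted p = 0.74).

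In the LP, Klf4, Klf5 and Klf6 fell and Klf10 rose with 1 h of TTX, which made 4 calls, 1 higher and 3 lower (background 4.65% of 31944 genes, 3.03% higher and 1.62% lower). The blocked fit called 8, with 2 higher and 6 lower, where it called 32% of 15570 genes, and added Klf7 (0.14, adjusted p = 0.025), Klf9 (−0.20, 0.0012), Klf13 (−0.11, 0.045) and Klf16 (−0.20, 0.0031). The members' median log2 fold change was −0.19, against 0.01 over all genes tested.

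Klf4 had 14.3, 17.8, 19.1, 10.1 and 7.58 CPM in LP TTX. The lowest 2 h Bic library, that of preparation 8, was still higher than the highest of these. The LP passive effect on Klf4 was −2.37 ± 0.19 (edgeR adjusted p = 1.4e-10), and its drop within preparations was 80.1% ± 2.81 and ranged from 77.5% to 84.4% over the 5 preparations (SD). Klf4 also fell below its level at the moment of TTX addition, by 2.10 ± 0.14 on the log2 scale against 1 h Bic (edgeR adjusted p = 4.5e-14), while 17.7% ± 2.57 of the 2 h Bic rise over control was present. The difference between the LP and SP passive effects on Klf4, −0.64 ± 0.28, was not called (edgeR adjusted p = 0.89).

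Klf5 had 21.3, 22.4, 22.6, 16.2 and 18.3 CPM in LP TTX, below all libraries of 2 h Bic (LP passive effect −0.84 ± 0.09, edgeR adjusted p = 3.9e-08). Klf6 had 54.9, 76.1, 86.8, 61.9 and 53.5 CPM, again without overlap with 2 h Bic (−0.92 ± 0.11, edgeR adjusted p = 3.3e-07). Klf6 thereby fell below its own control in 4 of 5 preparations, all but preparation 6, and −36.2% ± 33.3 of its Bic rise was present. The LP passive effect on Klf6 differed from the SP passive effect by −0.89 ± 0.17 (edgeR adjusted p = 0.0065), a call that was lost over genes that pass filterByExpr (adjusted p = 0.075) and without preparation 1 (−0.80, 0.097).

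Klf10 showed the reverse. With LP TTX it had 124, 126, 120, 121 and 131 CPM, against 30.7, 26.2, 29.9, 28.5 and 31.4 CPM after 2 h Bic and no more than 33.4 CPM in any library of the other 8 conditions. The 5 LP TTX libraries stood close together and far above all others. The LP passive effect on Klf10 was 2.08 ± 0.07 (edgeR adjusted p = 2.5e-21), a rise of 326% ± 31.5 within preparations (SD, n = 5). Against 1 h Bic, the time at which TTX was added, Klf10 rose by 2.58 ± 0.08 on the log2 scale (edgeR adjusted p = 6.4e-25). The LP passive effect exceeded the SP passive effect by 1.64 ± 0.12 (edgeR adjusted p = 1.5e-12), between protocols that differ in the time with Bic before TTX as well as in the time with TTX. In this difference 2 members were called, Klf6 and Klf10 (background 0.256% of 34313 genes, 0.187% higher and 0.0699% lower).

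Against 1 h Bic, 6 members were called in LP TTX, 2 higher and 4 lower (background 7.19%, 4.34% higher and 2.85% lower). Klf9 was the other member that was higher (0.31 ± 0.07, edgeR adjusted p = 0.0036), and 75.3% ± 11 of its 2 h Bic rise over control was present in LP TTX (SD, n = 5). Klf2, Klf4, Klf5 and Klf6 were lower. For Klf2, with 0.73, 1.49, 0.717, 0.717 and 0.649 CPM in LP TTX, this difference was −1.17 ± 0.24 (edgeR adjusted p = 0.00072), and it was lower in 5 of 5 preparations. Its LP passive effect against 2 h Bic, −0.25 ± 0.27, was not called (edgeR adjusted p = 0.65).

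NMDA on top of TTX for 1 h called 9 of the 10 members, 4 higher and 5 lower. Of all 32852 genes tested, 23.3% were called (11.6% higher and 11.8% lower). The blocked fit also called 9 members, where it called 62.1% of 16399 genes. Of the activating members, Klf2, Klf4, Klf5 and Klf6 rose and Klf7 fell, and of the Sin3-recruiting members Klf9, Klf10, Klf13 and Klf16 all fell. Klf15 was not called (0.10 ± 0.11, edgeR adjusted p = 0.57). The members' median was −0.11, against 0.11 over all genes tested.

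**Figure D3:**
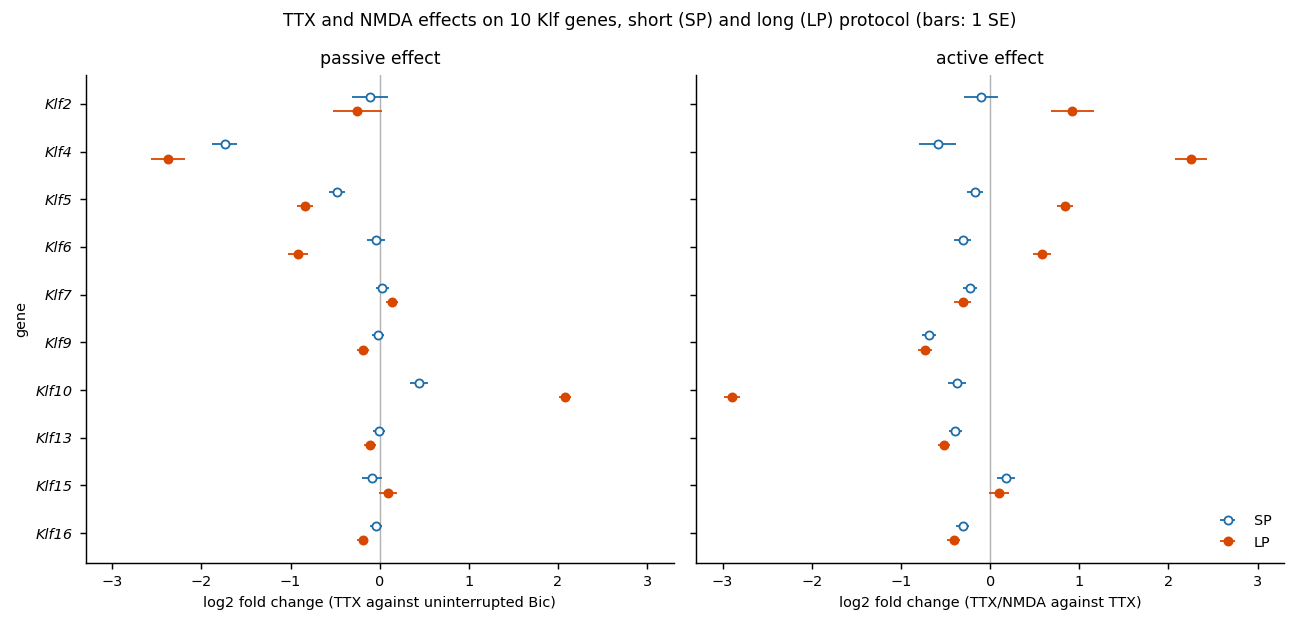
Log2 fold change with its SE for the passive effect (left, TTX against uninterrupted Bic) and the active effect (right, TTX/NMDA against TTX) on 10 Klf genes, with open points for the SP and filled points for the LP. Klf4 lies at −2.37 and Klf10 at 2.08 in the LP passive effect, and they change sides in the LP active effect, at 2.25 and −2.90.

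Klf4 had 66.4, 95.3, 69.9, 50.2 and 44 CPM with LP TTX/NMDA, more than in any LP TTX library. The LP active effect was 2.25 ± 0.18 (edgeR adjusted p = 8.4e-11), and 97.3% ± 22 of the 2 h Bic rise of Klf4 was present (SD, n = 5). Against 1 h Bic, when TTX and NMDA were added, Klf4 was not called (0.16 ± 0.12, edgeR adjusted p = 0.42). The LP total effect, −0.12 ± 0.17 (edgeR adjusted p = 0.64), left Klf4 within the range of 2 h Bic. The LP active effect on Klf4 exceeded the SP active effect by 2.85 ± 0.34 (edgeR adjusted p = 4.5e-07).

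Klf5 had 31.9, 39.1, 40.4, 36.9 and 33.2 CPM with LP TTX/NMDA, above all LP TTX libraries and within the range of 2 h Bic but for preparation 1 below and preparation 6 above it. Its LP active effect was 0.84 ± 0.09 (edgeR adjusted p = 2.9e-08) and its LP total effect 0.01 ± 0.08 (edgeR adjusted p = 0.94). Klf6 had 87.5, 125, 105, 90.5 and 93.6 CPM, above all LP TTX libraries, with an LP active effect of 0.58 ± 0.10 (edgeR adjusted p = 8.5e-05). It was below the 2 h Bic level (LP total effect −0.34 ± 0.10, edgeR adjusted p = 0.0078), a call that was lost without preparation 1 (adjusted p = 0.061) and in the fit of all 45 libraries (0.073).

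Klf2 had 1.76, 2.15, 1.46, 1.88 and 1.08 CPM with LP TTX/NMDA and rose in 5 of 5 preparations, although the ranges overlapped through preparation 3 of LP TTX. Its LP active effect was 0.92 ± 0.24 (edgeR adjusted p = 0.0039). The LP total effect on Klf2, 0.67 ± 0.24 (edgeR adjusted p = 0.039), was lost without preparation 1 (adjusted p = 0.14) or 7 (0.088), by DESeq2 (0.054) and in the fit of all 45 libraries (0.072). Klf5 and Klf6 had LP active effects above their SP active effects, by 1.03 ± 0.14 and 0.90 ± 0.17 (edgeR adjusted p = 3e-06 and 0.00097). The same difference for Klf2, 1.03 ± 0.31, was not called (edgeR adjusted p = 0.068), but it was in the blocked fit (1.04, adjusted p = 0.0012), by DESeq2 (0.032) and without preparation 3 (0.021) or 8 (0.015).

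Cell type markers moved in the same comparison, in which Klf2, Klf4, Klf5 and Klf6 rose and Klf7, Klf9, Klf10, Klf13 and Klf16 fell. In the LP active effect, 5 of 5 astrocyte markers and 5 of 5 fibroblast and mural markers were higher, as were 2 of 6 microglial, 2 of 5 oligodendrocyte and 1 of 6 endothelial markers, and 2 of 6 neuronal markers, Map2 and Slc17a7, were lower. The summed astrocyte markers had 384 to 798 CPM in LP TTX and 680 to 1419 CPM in LP TTX/NMDA, the fibroblast and mural markers 75.3 to 143 and 101 to 214 CPM, and the endothelial markers 2.52 to 4.19 and 2.66 to 6.24 CPM. The summed microglial markers had 5.36 to 7.36 and 6.28 to 8.76 CPM, and the neuronal markers 5777 to 6396 and 4939 to 5348 CPM. The part of these shifts in the rises and falls of these 9 members was not tested. After 2 h Bic, where Klf4, Klf5 and Klf6 were higher, the summed astrocyte markers overlapped the control, with 412 to 743 against 369 to 683 CPM. The blocked fit called 2 of the 5 as higher, as it did 2 of 5 fibroblast and mural markers and 1 oligodendrocyte marker. Of 6 neuronal markers it called 1 higher and 1 lower. It called 14.4% of 15269 genes higher in this comparison.

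Klf10 had 15.7, 21.9, 18, 14.1 and 14 CPM with LP TTX/NMDA, a drop of 86.5% ± 2.7 from LP TTX (SD, n = 5). It was then below the control in 5 of 5 preparations. The LP active effect on Klf10 was −2.90 ± 0.09 (edgeR adjusted p = 1.6e-19), and its difference from the SP active effect was −2.51 ± 0.15 (edgeR adjusted p = 8.4e-15). The LP total effect was −0.82 ± 0.10 (edgeR adjusted p = 4.5e-08). Against 1 h Bic, the log2 fold change of Klf10 was −0.32 ± 0.11 (edgeR adjusted p = 0.027), a call that was lost without preparation 1 (adjusted p = 0.085) or 8 (0.12) and over genes that pass filterByExpr (0.067).

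Klf9 had 58.3, 66.8, 69, 55.9 and 70.4 CPM with LP TTX/NMDA, against 112, 104, 113, 88.9 and 112 CPM with LP TTX. The groups were far apart, and the TTX/NMDA levels spanned the range of the control. Of the 2 h Bic rise of Klf9, 1.45% ± 9 was present with LP TTX/NMDA (SD, n = 5), from −10.4% to 9.69%. The LP active effect on Klf9 was −0.73 ± 0.08 (edgeR adjusted p = 1.8e-08) and its LP total effect −0.92 ± 0.07 (edgeR adjusted p = 9.9e-12).

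Klf16 fell to 53.5, 58.6, 56.9, 61.7 and 56.1 CPM, with 16.5% ± 8.23 of its rise present (LP active effect −0.41 ± 0.07, edgeR adjusted p = 2.8e-05). Klf13 fell to 154, 176, 188, 162 and 155 CPM, below every library of the control, of LP TTX and of 2 h Bic (LP active effect −0.52 ± 0.07, edgeR adjusted p = 9e-07). Klf7 had 96.1, 141, 125, 111 and 140 CPM with LP TTX/NMDA, which overlapped LP TTX but was lower in 5 of 5 preparations (LP active effect −0.31 ± 0.09, edgeR adjusted p = 0.008).

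In contrast to Klf10, none of Klf7, Klf9, Klf13 and Klf16 was called as different between the LP and SP active effects. The differences were −0.06 ± 0.12, −0.03 ± 0.12, −0.13 ± 0.09 and −0.08 ± 0.09 on the log2 scale (edgeR adjusted p = 1, 1, 0.63 and 0.81). In this difference 4 members were called, Klf4, Klf5 and Klf6 as higher and Klf10 as lower in the LP (background 2.57% of 35027 genes, 0.722% higher and 1.85% lower).

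In the LP total effect, 6 members were called, Klf2 higher and Klf6, Klf9, Klf10, Klf13 and Klf16 lower (background 22.8%, 11.7% higher and 11.1% lower). Klf13 and Klf16 had total effects of −0.63 ± 0.08 and −0.60 ± 0.07 (edgeR adjusted p = 6.9e-08 and 2.5e-08). Against the level at NMDA addition, 1 h Bic, 6 members were called in LP TTX/NMDA, Klf5 higher (0.42 ± 0.09, edgeR adjusted p = 0.00032) and Klf7, Klf9, Klf10, Klf13 and Klf16 lower (background 21.1%, 10.9% higher and 10.2% lower). Of these, Klf13 had the largest difference (−0.55 ± 0.07, edgeR adjusted p = 3.1e-07), and the call on Klf16 (−0.24 ± 0.08, 0.016) was lost without preparation 1 (adjusted p = 0.068) or 8 (0.072). The blocked fit also called 6 members in both comparisons. It called 56.6% of 15947 genes in the LP total effect and 52.3% of 15904 genes against 1 h Bic. Without the block, 5 of 5 astrocyte markers were higher in both. Of 5 fibroblast and mural markers, 4 were higher in the LP total effect and 5 against 1 h Bic. Of 6 neuronal markers, 1 was higher and 2 were lower in both. The part of these shifts in the members' calls was not tested.

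**Figure D4:**
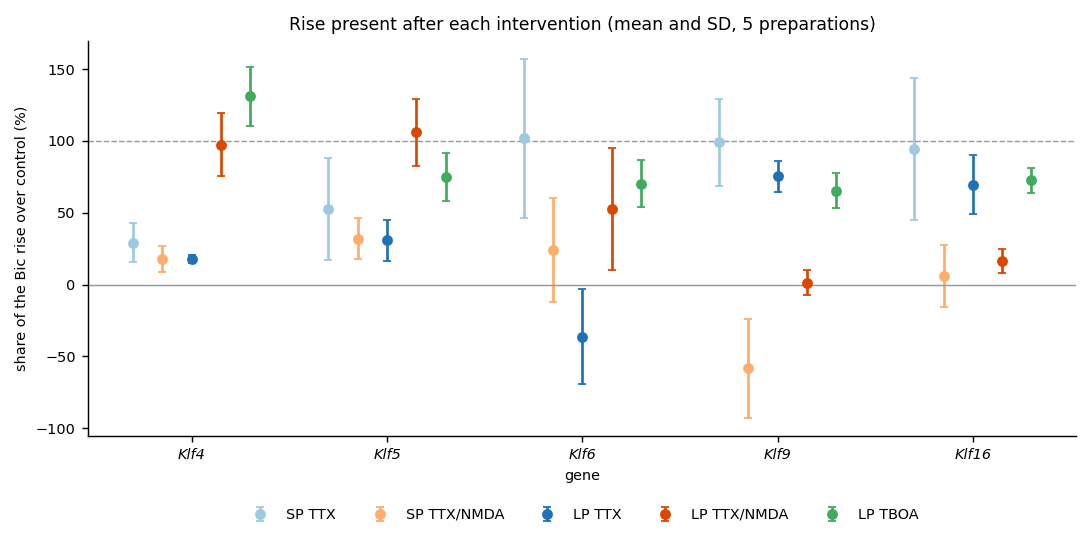
Share of the Bic rise over control that was present after each intervention, in percent of the rise with uninterrupted Bic of the same total time (points, means of 5 preparations, bars, SD), for the 5 Klf genes called higher after both 1 and 2 h Bic. The solid line marks the control level and the dashed line uninterrupted Bic. In the LP, Klf4 has 17.7% with TTX and 97.3% with TTX/NMDA, and Klf9 has 75.3% and 1.45%.

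Glutamate spillover was induced with TBOA in the presence of Bic and without TTX. In the comparison of LP TBOA with 2 h Bic, 1 member was called, Klf10, which was lower (background 0.602% of 31706 genes, of which 0.549% lower). Klf10 had 22, 21.3, 27.3, 21 and 19.1 CPM with LP TBOA, below its 2 h Bic level in 5 of 5 preparations but with overlapping ranges (log2 fold change −0.41 ± 0.08, edgeR adjusted p = 0.0046). This call was lost in the fit of all 45 libraries (adjusted p = 0.057).

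The blocked fit called 3 members with TBOA, 1 higher and 2 lower, where it called 2.67% of 15628 genes. Klf4, with 96.8, 114, 93.2, 79.8 and 52.9 CPM, was higher than after 2 h Bic in 5 of 5 preparations while the ranges overlapped (0.33 ± 0.16, edgeR adjusted p = 0.6, and 0.37 with adjusted p = 0.0075 in the blocked fit), and 131% ± 20.7 of its 2 h Bic rise was present. Klf9, with 119, 95.4, 99.7, 89.4 and 100 CPM, was lower in 5 of 5 preparations (−0.24 ± 0.07, edgeR adjusted p = 0.1, and −0.25 with adjusted p = 0.009 in the blocked fit). Without preparation 8, both were called without the block too (adjusted p = 0.0033 for Klf4 and 0.021 for Klf9), and DESeq2 called Klf9 (0.048).

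Among the members, the condition means of log2 CPM of Klf9 and Klf16 ran most alike, with a Pearson correlation of 0.97 over the 9 conditions, followed by Klf4 and Klf5 with 0.94. Klf10 and Klf4 had −0.21. The 9 points share libraries of the same preparations and are a description. Among 1064 genes outside the 10 with a mean of at least 1 CPM and a span of at least 1 on the log2 scale, the pattern of Klf4 was most closely matched by Nfkbid (correlation 0.99), Nr4a1 (0.98), Gadd45g, Nfkbiz and Btg1 (0.97 each). Nr4a1 had a mean of 47.2 CPM in the control, 907 CPM after 2 h Bic, 234 CPM in LP TTX and 590 CPM in LP TTX/NMDA.

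The other 16 genes of the Klf and Sp family showed calls in both directions. After 2 h Bic, 8 of 16 were called, 4 higher and 4 lower, where 9.02% of all genes were called. Sp7, the osteoblast factor osterix, had 1 to 3 reads per library in the control and 11 to 32 after 2 h (3.35 ± 0.41, edgeR adjusted p = 1.1e-07). Klf14, a close relative of Klf16, rose from 0.75 to 4.45 CPM (edgeR adjusted p = 2.2e-11), and Sp9, a factor of interneuron development, by 0.86 ± 0.11 (1.8e-07). Klf11, the nearest relative of Klf10, fell by 0.76 ± 0.11 (edgeR adjusted p = 6.6e-06), Sp3 by 0.63 ± 0.08 (1.8e-07) and Sp1 by 0.42 ± 0.10 (0.0039).

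In the LP active effect, 8 of the 16 were called, 2 higher and 6 lower. Of all genes, 23.3% were called (11.6% higher and 11.8% lower). The blocked fit called 3 of 14 higher and 6 of 14 lower, where it called 62.1% of 16399 genes. Klf3 (0.52 ± 0.09, edgeR adjusted p = 3.3e-05) and Sp8 (0.36 ± 0.13, 0.034) were higher. Sp7 fell by 2.26 ± 0.33 (edgeR adjusted p = 4.5e-06), Klf14 by 1.37 ± 0.16 (9.5e-08) and Klf12 by 0.67 ± 0.08 (2e-07). Klf14 had 4.48 CPM in LP TTX, where it kept its 2 h Bic level, and 1.76 CPM in LP TTX/NMDA.

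Genes whose products act with or on these factors were set beside them, and the shares of all genes called were again 9.02% after 2 h Bic and 23.3% in the LP active effect. Of 7 corepressor genes, Sap30, a subunit of the Sin3 complex, rose from 4.87 ± 0.747 to 41.3 ± 7.68 CPM (3.07 ± 0.12, edgeR adjusted p = 1.4e-20), and Hdac2 was lower (−0.26 ± 0.08, 0.043). Sap30 was also the single corepressor gene called in the LP active effect (−0.55 ± 0.13, edgeR adjusted p = 0.0012), where the blocked fit called 5 of 7, 3 higher and 2 lower, beside 62.1% of all 16399 genes in that fit. Sap30 fell in the LP passive effect as well (−0.72 ± 0.12, edgeR adjusted p = 0.00016) and stood at 25.3 CPM in LP TTX, 17.4 CPM in LP TTX/NMDA and 27.8 CPM in LP TBOA.

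Of 8 genes of the MEK5-ERK5-MEF2 pathway, which drives Klf2 and Klf4 in endothelial cells, Mef2d (0.30 ± 0.09, edgeR adjusted p = 0.023) and Map3k2 (0.25 ± 0.08, 0.048) were higher after 2 h Bic. Map3k2 (−0.81 ± 0.09, edgeR adjusted p = 6e-08), Mef2a (−0.51 ± 0.08, 2.9e-05) and Mef2d (−0.47 ± 0.06, 1.1e-06) were lower in the LP active effect in which Klf2 and Klf4 rose. Of 4 ubiquitin ligases that target Klf proteins, Fbxw7 was higher after 2 h Bic (0.30 ± 0.08, edgeR adjusted p = 0.0067), and Smurf2 (−0.48 ± 0.07, 7.8e-06) and Fbxw7 (−0.38 ± 0.07, 0.00011) were lower in the LP active effect.

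Klf9 and Klf15 are induced by glucocorticoids in many tissues, so 9 genes of that response were set beside them. After 2 h Bic, 4 were higher and 2 lower, against 9.02% of all genes called. Errfi1 (2.69 ± 0.08, edgeR adjusted p = 2.9e-24), Sgk1 (2.18 ± 0.09, 2.4e-20) and Per1 (2.08 ± 0.09, 1.7e-19), which are also immediate early genes, rose, and the receptor genes Nr3c1 (−0.48 ± 0.08, 3.2e-05) and Nr3c2 (−0.34 ± 0.09, 0.011) fell. In the LP active effect, Tsc22d3 was higher (0.50 ± 0.09, edgeR adjusted p = 0.00015) and 6 were lower, with the largest drops in Nr3c2 (−1.10 ± 0.08, 2.7e-11), Per1 (−0.73 ± 0.07, 8e-09) and Zbtb16 (−0.71 ± 0.08, 1.4e-07). Klf9 shared the direction of Per1 in these comparisons. Nr3c1 and Nr3c2 went against Klf9 after 2 h Bic, and Tsc22d3 did so in the LP active effect. Klf15 was not called in either.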

How the data were processed

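Poly-A RNA was sequenced single-end for 75 cycles from 45 libraries. According to the study's methods, the authors demultiplexed with bcl2fastq 2.20.0.422, aligned to GRCm38 with STAR 2.5.4b and counted uniquely assigned, strand-matched reads per gene of Ensembl 94 with featureCounts 1.6.5. The deposited values are raw read counts per gene. Multimapping reads and reads that overlap several genes were left out by the authors, so that reads shared with a paralog or with a gene overlapping on the same strand are lost. Groups and preparation numbers were taken from the sample labels.

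Each comparison was fitted on the libraries of its conditions with edgeR 4.0.16 (R 4.3.3), with TMM scaling, glmQLFit and glmQLFTest over all genes with at least 1 read, and called at a Benjamini-Hochberg adjusted p under 0.05. Alternatives were DESeq2 1.42.0, DESeq2 size factors, filterByExpr, the preparation as a block, 1 fit of all 45 libraries, leaving out each preparation, and CPM on raw totals. Levels per kb divide CPM by the merged exon length of GENCODE M21 gene models. The sample titles give a number, and the study's methods count each culture preparation as a replicate. Samples with the same number were therefore taken as paired. Deviations from the condition means over 13592 genes correlated by 0.43 on average between libraries of the same preparation and by −0.11 between those of different preparations. On simulated counts for 2 h Bic against control (29199 genes), 88% of genes changed by 1 on the log2 scale were recovered and 62% of those changed by 0.5, and 5.66% of calls were false. With the block over 15263 genes these shares were 79%, 47% and 8.7%. The simulated counts held no preparation effect, so these shares cannot show how the block performs on the paired libraries.

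The 10 genes and the other gene lists were chosen with earlier results of these data known. All 10 were tested in every comparison. Those called, those that lost a call under an alternative and those that gained one in the blocked fit are named. Calls gained under the other alternatives are not all named. Of the other lists, the named genes are the up to 3 per direction called with the largest log2 fold changes after 2 h Bic and in the LP active effect. Other genes or comparisons of these lists that are given were chosen after their values were seen.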

Additional observations from a re-analysis of the deposited data

Results flagged for a closer look

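In 90 groups of 5 libraries, 1 for each gene and condition, 4 held a library that stood apart from the other 4 by Dixon's criterion, where chance gives about 1 in 20 groups (4.5). Klf2 had 3.26 CPM in preparation 3 after 1 h Bic, against 1.43 to 1.92 CPM in the other preparations. In LP TTX, preparation 3 was again highest for Klf2, with 1.49 CPM against 0.649 to 0.73 CPM. Klf5 had 22.2 CPM in preparation 3 after 1 h Bic, against 27.2 to 28.7 CPM. Klf13 had 267 CPM in preparation 6 of SP TTX, against 230 to 240 CPM.

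The effects of the LP and the SP differed for 4 genes by edgeR's quasi-likelihood test of the difference. The passive effect differed by −0.89 on the log2 scale for Klf6 and by 1.64 for Klf10. The active effect differed by 2.85 for Klf4, 1.03 for Klf5, 0.90 for Klf6 and −2.51 for Klf10. The protocols differ in the time with Bic before the intervention and in the time of the intervention, and the share of either in these differences cannot be told apart.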

How the results depend on the processing

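Of 160 member results, 10 genes in 16 comparisons, 72 were called, and the alternatives run reversed the direction of 0 of these 72. DESeq2 size factors in edgeR changed no call and moved no log2 fold change by more than 0.02. The replicate block over the genes that pass filterByExpr gained 14 calls and lost 1, that of Klf5 in the SP passive effect. It called 8 members in place of 4 in the LP passive effect and 3 in place of 1 in the spillover effect, and changed no other count of members by more than 1.5 times. In the spillover effect DESeq2 called 2 members, and the fit of all 45 libraries called 0, with 5 of 10 at an unadjusted p under 0.05 and Klf10 at an edgeR adjusted p of 0.057. With filterByExpr, 1 member remained called in the SP passive effect, Klf4, and 1 in the difference between the LP and SP passive effects, Klf10. Leaving out each preparation in turn gave 4 to 7 members in the SP active effect (7 without preparation 6 and 7 without preparation 8), 1 to 3 in the spillover effect, 1 to 2 in the difference of the passive effects and 2 to 3 in the SP passive effect. Of the 88 log2 fold changes that were not called, 18 changed sign when a preparation was left out, all of them at most 0.16 in size with all preparations. Among those given in the text, they ranged from −0.02 to 0.14 for Klf15 in the LP active effect, from −0.03 to 0.11 for Klf5 in the LP total effect, and from −0.10 to 0.02 for Klf7 and −0.09 to 0.01 for Klf9 in the difference of the active effects. CPM on raw library totals moved 3 of 90 condition means by more than the SD, to 119 CPM for Klf10 in LP TTX, 81.3 CPM for Klf16 after 2 h Bic and 61.5 CPM for Klf16 in LP TTX/NMDA. Of the 5 genes most like Klf4, 4 were also among the 5 most like it over all 45 libraries. The cause of these shifts was not tested. Depth limits Klf2 most, with as few as 10 reads in a library.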
